A study of Rattus norvegicus with 24 samples.

Results

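The 10 genes described here are Kdr, Flt1, Pecam1, Cdh5, Tek, Tie1, Vegfa, Eng, Vwf and Emcn, which mark the cells that line blood vessels or carry the vascular endothelial growth factor (VEGF) signal. They were found as the non-control probes whose gene name in the scanner files equals 1 of these symbols, which gave 15 probes of the 30367 on the array and 10 of the 20274 genes tested. The arrays measured total RNA of thyroid glands from RccHan Wistar rat pups. For the exposed groups, acrylamide was in the drinking water at a daily dose of 3 mg per kg of body weight. Dams received it starting on gestational day 6 and pups themselves until postnatal day 35 ± 3, while control dams and pups had tap water. The 24 one-colour Agilent arrays form 6 groups of 4: acrylamide and control females at 10 PM, acrylamide and control males at 10 PM, and acrylamide and control females at 10 AM. Since no label says which animal an array came from, each p-value here covers only the spread among the arrays, which may be technical. The study's text names altered plasma hormones as the question behind the exposure.

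VEGF-A is a secreted ligand that binds the receptors encoded by Kdr (VEGFR2) and Flt1 (VEGFR1) on endothelial cells. Kdr carries most of the growth and permeability signal, while Flt1 binds the ligand tightly and in its soluble form acts as a decoy. Tek encodes the receptor for the angiopoietins and Tie1 its partner. Pecam1 and Cdh5 encode adhesion molecules of the junctions between endothelial cells, Eng a co-receptor for ligands of the BMP and TGF-β family, Emcn a surface mucin of venous and capillary endothelium, and Vwf the clotting factor stored in endothelial granules. Every thyroid follicle lies in a dense capillary net, and thyroid follicular cells themselves are a known source of VEGF-A.

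Of the genes, 8 were read by 1 probe each, Vegfa by 4 and Vwf by 3. Where a gene had several probes, the one with the highest mean level was tested. The probe sequences are those printed in the scanner files, and the positions are on rat build rn4, per the file headers. No rn4 gene annotation was used here, so exon, intron or UTR is not given. The 4 Vegfa probes lie along the plus strand of chromosome 9, and the 3 Vwf probes along the plus strand of chromosome 4, and both sets are numbered from the first to the last along the genome; the last of each is the one tested. Sequences are given for the second to the last Vegfa probe and for all 3 Vwf probes, in that order. They are shown because probes of the same gene gave different results, and the single Kdr probe because Kdr was called. For Kdr and the tested probes of Vegfa and Vwf, 30 bases are shown. Capitals mark a repeat of AC in the first Vwf probe and the letters AATAAA, the polyadenylation hexamer, in the third.
Vegfa, A_64_P099891, chr9:10528551-10528610: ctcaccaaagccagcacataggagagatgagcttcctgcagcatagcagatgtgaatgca
Vegfa, A_64_P155983, chr9:10531972-10532031: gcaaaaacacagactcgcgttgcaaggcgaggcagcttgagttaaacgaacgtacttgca
Vegfa, A_64_P099886, chr9:10535933-10535992, last 30 bases: cgagatattccgtagtacatatttattttt
Vwf, A_64_P286599, chr4:161738186-161738245: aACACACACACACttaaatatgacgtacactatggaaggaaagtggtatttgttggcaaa
Vwf, A_64_P114913, chr4:161854554-161854613: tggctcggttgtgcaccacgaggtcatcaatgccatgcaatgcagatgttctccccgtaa
Vwf, A_64_P136501, chr4:161854702-161854759, last 30 bases: cccacAATAAAggccaagttctcctcttaa
Kdr, A_43_P11686, first 30 bases: gtgtgtccttgttctctgttcttaggagga

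AATAAA was found on the strand as given in 2187 of the 23416 probes kept (9.34%), among them the third Vwf probe and the Pecam1 probe. The reverse complement TTTATT was in 706 (3.02%), among them the fourth Vegfa probe. A run of ACACACACAC was in 21 (0.0897%), among them the first Vwf probe. These matches describe the letters of the probes only.

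All values are log2 of the processed signal minus the array's own 75th percentile, so 0 is the 75th percentile of an array, and levels are compared only within a probe. All 10 genes, and the thyroid genes Tg and Pax8, were well above background on 24 of 24 arrays. In whole-gland RNA, fewer cells of a type and less RNA per cell cannot be told apart. At night, all acrylamide arrays lay in row 2 of their slide and all control arrays in row 1, so treatment and row cannot be told apart there. The morning arrays were scanned in a second session with a different saturation value, so collection time cannot be told apart from slide and session; the same holds for sex and slide at night. Several arrays stood apart, none of them left out of the fit. Acrylamide array 1 of females in the morning had a mean of 12 thyroid follicular genes of -3.79, against 1.48 to 1.99 in the controls, and arrays 1 and 3 had an oesophageal epithelium mean of 2.02 and 1.89, against -2.6 to -1.39. Ube1y1, a Y-linked gene in rats, was well above background on 7 of 8 arrays labelled male and 1 of 16 labelled female. The male exception was acrylamide array 4 at night (-7.09) and the female exception was control array 4 in the morning (-4.97), so these are called the arrays labelled acrylamide male 4 and control morning female 4.

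**Figure D1:**
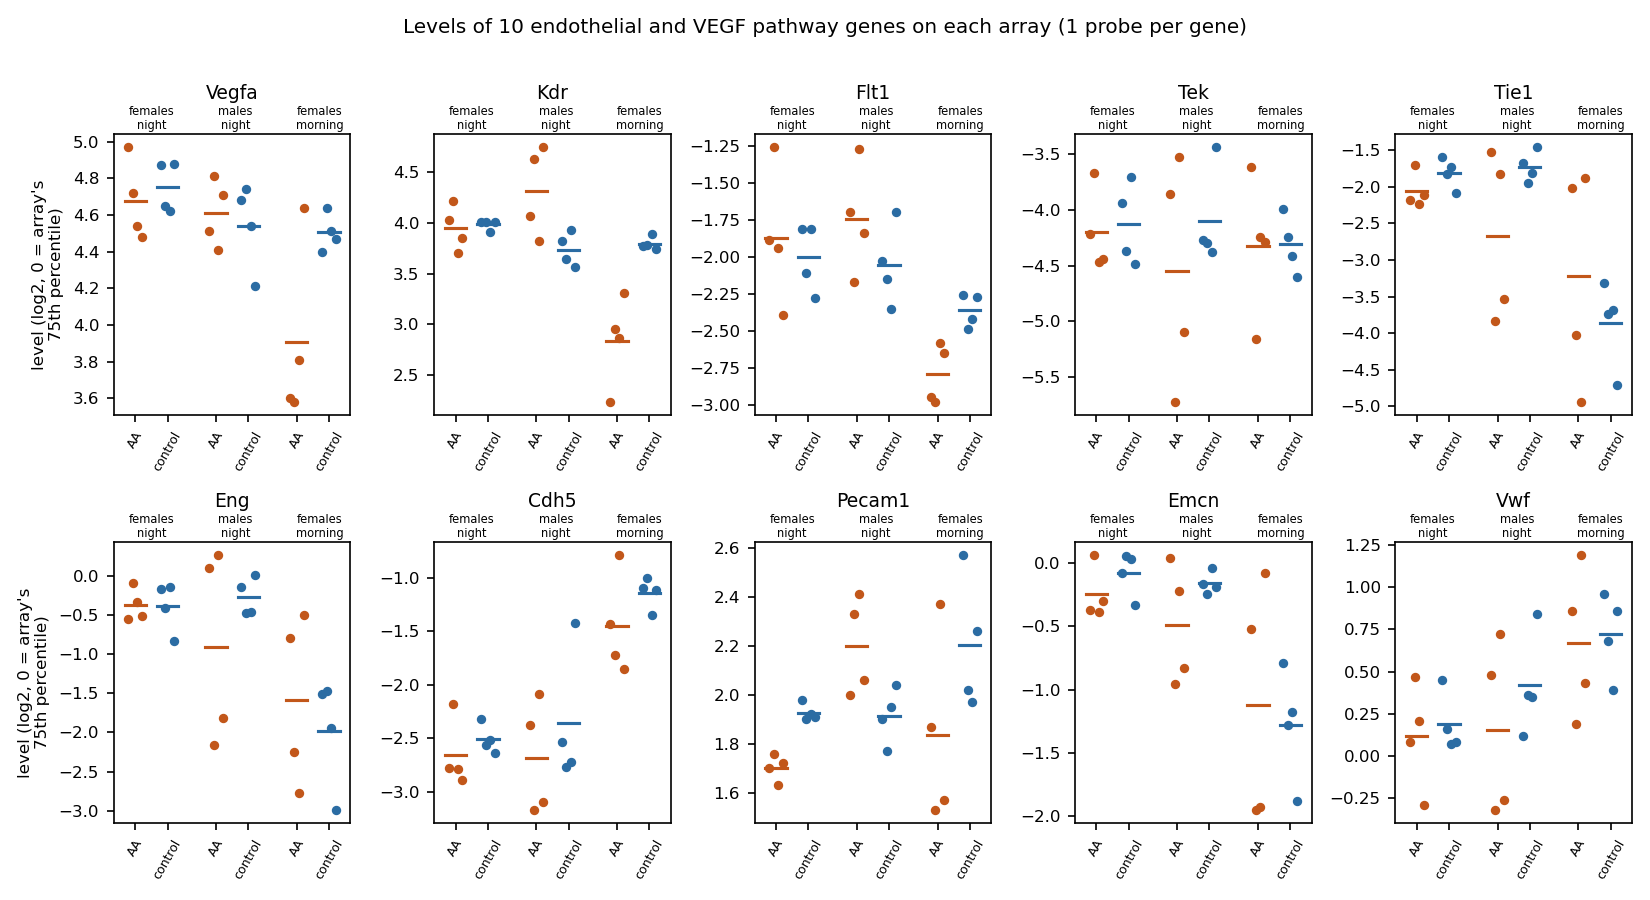
Level of each of the 10 genes (log2, 0 is the array's 75th percentile) on each array, by group, with acrylamide (AA) left of control in each pair, points for arrays and lines for group means. In females in the morning, Kdr lay below every control array in all 4 acrylamide arrays, and Tie1 and Eng spread widely in the acrylamide males and in the morning arrays.

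In females in the morning, Kdr fell to 0.515 of its control level, and it was the 1 member of 10 that passed the test, against a background of 2.22% of all genes tested (1.75% lower). Kdr read 2.23, 2.95, 2.86 and 3.31 in acrylamide females in the morning, against 3.77, 3.78, 3.89 and 3.74 in control females in the morning. The groups did not overlap, and the control values were close together while the acrylamide values spread over more than a log2 unit. Kdr averaged 2.84 ± 0.45 in acrylamide females and 3.79 ± 0.07 in controls (SD, n = 4 each), a log2 difference of -0.96 (SE 0.20, 95% interval -1.38 to -0.53, 0.515-fold, limma adjusted p = 0.03). Without acrylamide array 1, whose thyroid genes were lowest, the difference was -0.76 (adjusted p = 0.0938), and without arrays 1 and 3 it was -0.67 (adjusted p = 0.115). With the thyroid and muscle means as covariates it was -0.62 (adjusted p = 0.229), and fitted on these 8 arrays alone it was -0.96 (adjusted p = 0.386). Of the 12 thyroid follicular genes 2 were called lower and none was positive (median -1.98), and the list mean was -3.79 to 1.62 in acrylamide arrays and 1.48 to 1.99 in controls. Of the 6 oesophageal genes 1 was called higher (median 2.67), with a list mean of -2.53 to 2.02 in acrylamide arrays and -2.6 to -1.39 in controls. The part of those other tissues in the Kdr difference was not tested beyond these fits. Without the array labelled control morning female 4 it was -0.98 (adjusted p = 0.0428).

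For the ligand, 1 of the 4 Vegfa probes passed the test. The fourth Vegfa probe, which was the one tested, read 3.6, 3.58, 3.81 and 4.64 in acrylamide females in the morning, against 4.40, 4.64, 4.51 and 4.47 in controls. Acrylamide array 4 lay among the controls and the other 3 acrylamide arrays lay below them. The difference was -0.60 (SE 0.19, 95% interval -1 to -0.20, 0.66-fold) and did not pass the test (adjusted p = 0.0843), while without acrylamide array 4 it was -0.85 (adjusted p = 0.00354), in a fit that called 1701 genes in place of 451. With every probe tested, the difference was -0.50 (limma adjusted p = 0.325) without acrylamide array 1. Without arrays 1 and 3 it was -0.40 (0.358), and on the 8 arrays alone -0.60 (0.389).

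The second Vegfa probe read 1.96, 2.67, 2.98 and 2.85 in acrylamide females in the morning, against 3.79, 4.03, 4.02 and 3.66 in controls. All 4 acrylamide arrays lay below all 4 controls. With every probe tested, this probe fell by 1.26 on the log2 scale (SE 0.24, 0.417-fold, limma adjusted p = 0.0221), in a fit that called 1.82% of 23416 probes. That call was lost without acrylamide array 1 (-1.05, adjusted p = 0.0729), without arrays 1 and 3 (-1.12, adjusted p = 0.0588) and on the 8 arrays alone (-1.26, adjusted p = 0.389).

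The first Vegfa probe read 0.21, 0.73, 1.17 and 1.13 in acrylamide females in the morning, against 1.76, 2.11, 1.90 and 1.47 in controls. These groups also did not overlap, and the difference was -1 (SE 0.29, 0.5-fold, adjusted p = 0.0711). The third Vegfa probe read -2.04, -2.52, -2.43 and -0.67, against -1.68, -1.42, -1.63 and -2.13 in controls. It overlapped widely and differed by -0.20 (SE 0.28, adjusted p = 0.682), so of the 4 probes 1 passed and 3 did not. Without acrylamide array 4 all 4 passed, at -1.11 for the first (adjusted p = 0.0377), -1.34 for the second (0.00586), -0.62 for the third (0.0389) and -0.85 for the fourth (0.00384). The gene fit without that array called 8.39% of all genes, against 2.22% with it. Acrylamide array 4 read among the controls on the tested probe (4.64) and above them on the probe that differed by -0.20 (-0.67). Leaving it out takes away those values, so these passes are no further support. Without acrylamide arrays 1 and 3 instead, none of the 4 passed. The probe that differed by -0.20 then differed by 0.12 (SE 0.33, limma adjusted p = 0.866). Only array 1, arrays 1 and 3, or array 4 were left out in the probe fits. Array 4 had a thyroid follicular mean of 1.62 and an oesophageal mean of -2.53, both within the control ranges. Acrylamide arrays 1, 2 and 3 had thyroid means of -3.79, 1.05 and 0.86 and oesophageal means of 2.02, -0.88 and 1.89. With the thyroid and muscle means as covariates, the gene fit called 0% of all genes in this comparison, so Vegfa did not pass. The part of those tissues in the Vegfa differences was not tested beyond these fits. At night, none of the 4 passed in either sex.

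**Figure D2:**
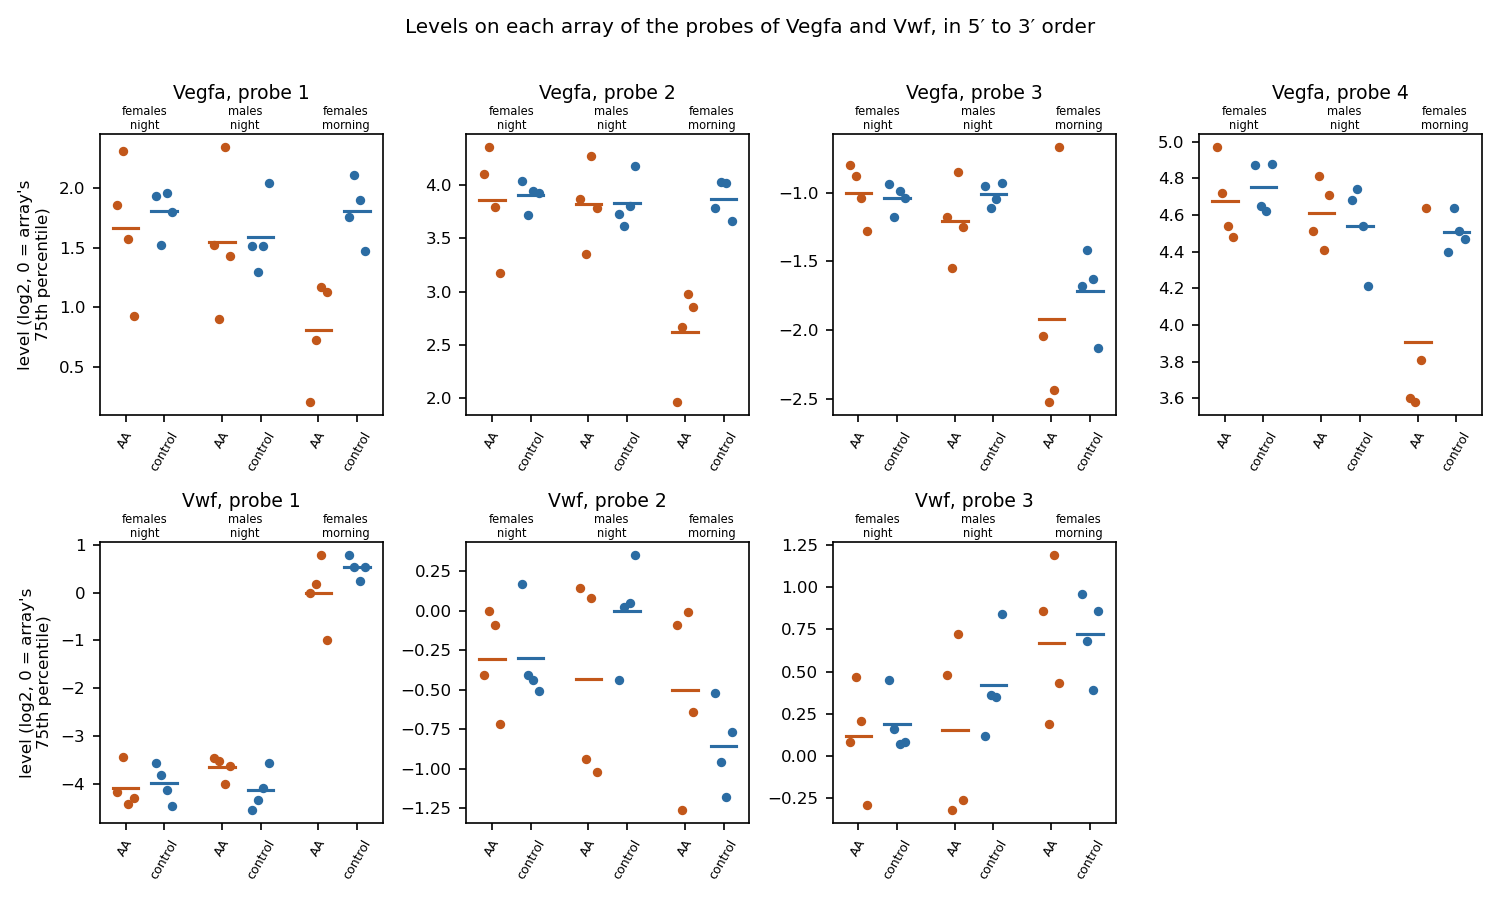
Levels (log2, 0 is the array's 75th percentile) of the 4 Vegfa and 3 Vwf probes on each array, in 5′ to 3′ order and by group, acrylamide (AA) left of control. In females in the morning the first and second Vegfa probes lay below every control array, while the first Vwf probe stood between -4.54 and -3.44 on all night arrays and between -1 and 0.78 on all morning arrays.

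The decoy receptor Flt1 read -2.95, -2.98, -2.58 and -2.65 in acrylamide females in the morning, against -2.26, -2.49, -2.42 and -2.27 in controls. The 2 groups did not overlap, as with Kdr, so 2 of 10 members did not overlap, against 8.23% of all genes, and 3 had an unadjusted p under 0.05, against 23.2%. The difference was -0.43 (SE 0.21, 95% interval -0.87 to 0.02) and did not pass the test (adjusted p = 0.231).

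The junction gene Pecam1 read 1.87, 1.53, 2.37 and 1.57 in acrylamide females in the morning, against 2.57, 2.02, 1.97 and 2.26 in controls. Acrylamide array 3 lay above 3 of the 4 control arrays and the other 3 lay below all of them. The difference was -0.37 (SE 0.16, adjusted p = 0.179), and without acrylamide array 3 it was -0.55 (adjusted p = 0.0272), in a fit that called 1929 genes in place of 451. Cdh5, the other junction gene, read -1.43, -1.72, -0.79 and -1.85 in acrylamide females in the morning, against -1.10, -1, -1.35 and -1.12 in controls, and array 3 was again the highest. The Cdh5 difference was -0.31 (SE 0.29, adjusted p = 0.527).

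The receptor genes Tie1 and Tek, with Eng and Emcn, gave no call in females in the morning. Tie1 read -2.02, -4.02, -4.94 and -1.88 in acrylamide females, against -3.31, -3.74, -3.68 and -4.71 in controls. Eng read -0.80, -2.25, -2.78 and -0.50, against -1.51, -1.47, -1.94 and -2.99, and Emcn read -0.52, -1.95, -1.93 and -0.08, against -0.79, -1.28, -1.18 and -1.88. In each of these genes acrylamide arrays 1 and 4 lay above all controls, and arrays 2 and 3 lay within or below them. Acrylamide arrays 1 and 4 were in row 2 of slide 4 and arrays 2 and 3 in row 1 of slide 3, so slide and row cannot be told apart among them. Of the controls, array 4 was in row 2 of slide 4, arrays 1 and 3 in row 2 of slide 3 and array 2 in row 1 of slide 3. The array labelled control morning female 4 read lowest of the controls in all 3 genes. The part of slide or row in this split was not tested. The differences were 0.65 (SE 0.56, 95% interval -0.51 to 1.81) for Tie1, 0.40 (SE 0.51) for Eng and 0.16 (SE 0.33) for Emcn, with adjusted p-values of 0.488, 0.658 and 0.791. Without the array labelled control morning female 4 they were 0.37, 0.06 and -0.04. Tek differed by -0.02 (SE 0.39) and the tested Vwf probe by -0.06 (SE 0.25). Over the 10 members, 3 differences were positive and 7 negative, with a median of -0.18, beside -0.09 over all genes.

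**Figure D3:**
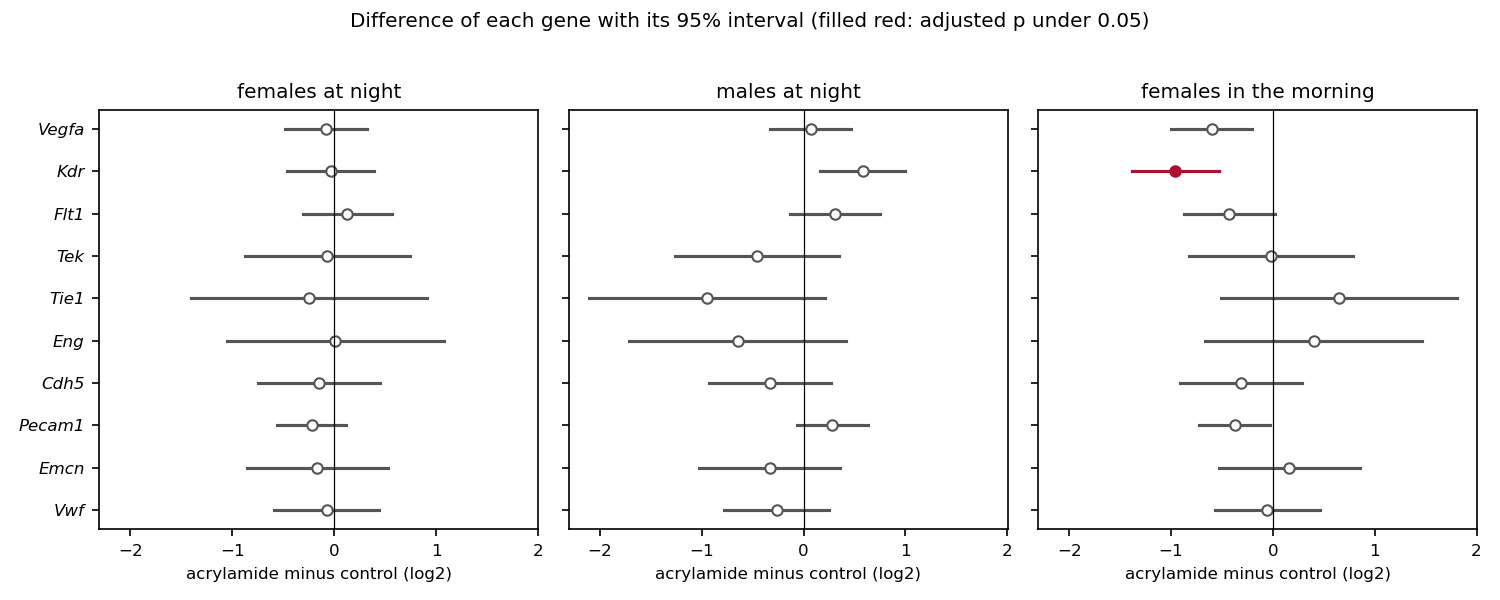
Log2 difference, acrylamide minus control, for each of the 10 genes in the 2 night strata (females, males) and the morning stratum, with 95% intervals from limma. Kdr in females in the morning, at -0.96, is the filled point, and the widest intervals are those of Tie1.

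In males at night no member passed the test, and limma called 0% of all genes there, with 13.3% at an unadjusted p under 0.05. Kdr read 4.07, 4.63, 3.82 and 4.75 in acrylamide males, against 3.82, 3.64, 3.93 and 3.56 in control males. Acrylamide arrays 1, 2 and 4 lay above all controls and array 3 lay among them. The difference was 0.58 (SE 0.20, 1.5-fold, 95% interval 0.16 to 1.00, unadjusted p = 0.00973, limma adjusted p = 0.369). It was 0.43 (adjusted p = 0.864) without the array labelled acrylamide male 4 and 0.21 (adjusted p = 1) without arrays 2 and 4, which were chosen after seeing the data for their low index of probe position, described further on. With the thyroid and muscle means as covariates it was 0.29 (SE 0.15, adjusted p = 1). None of the 9 skeletal muscle genes was positive in males (median -1.82, none called), with a list mean of 0.83 to 6.85 in acrylamide arrays, lowest on arrays 2 and 4, and 6.12 to 7.35 in controls. All 4 pituitary genes were positive (median 4.89, none called), with a list mean of -2.16 to 2.34 in acrylamide arrays and -5.84 to -4.09 in controls. The part of these tissues in the male differences was not tested beyond the covariate fit.

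Those 2 arrays were low in Tie1, which read -1.52, -3.84, -1.82 and -3.53 in acrylamide males, against -1.68, -1.95, -1.81 and -1.46 in control males. Eng read 0.09, -2.16, 0.26 and -1.82, against -0.14, -0.48, -0.46 and 0.01, with arrays 2 and 4 below all controls. Tek followed them, at -3.86, -5.72, -3.53 and -5.09, against -4.27, -4.30, -4.38 and -3.44. The differences were -0.95 (SE 0.56, 95% interval -2.11 to 0.21) for Tie1, -0.64 (SE 0.51) for Eng and -0.46 (SE 0.39) for Tek, with adjusted p-values of 0.438, 0.563 and 0.592. Without arrays 2 and 4 they were 0.06, 0.44 and 0.40, so the direction turned in all 3, in a choice of arrays made with these values known. None of the 10 members kept acrylamide and control males apart, against 4.49% of all genes, and 4 differences were positive and 6 negative. Vegfa differed by 0.07 (SE 0.19) and Flt1 by 0.31 (SE 0.21).

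In females at night no member passed the test either, and limma called 0% of all genes, with 1.76% at an unadjusted p under 0.05. The 1 member whose groups did not overlap, against 5.72% of all genes, was Pecam1. It read 1.70, 1.76, 1.63 and 1.72 in acrylamide females, against 1.98, 1.90, 1.92 and 1.91 in control females. All acrylamide values lay below all control values, by a small margin, with means of 1.70 ± 0.06 in acrylamide females and 1.93 ± 0.04 in control females (SD, n = 4 each). The difference was -0.22 (SE 0.16, unadjusted p = 0.188, limma adjusted p = 1). That SE is pooled over all 6 groups, and Pecam1 spread more in females in the morning (SD 0.39 in acrylamide, 0.28 in control). Kdr read 4.03, 4.22, 3.70 and 3.85 in acrylamide females, against 4.01, 4.01, 3.91 and 4.01 in control females, a difference of -0.03 (SE 0.20). The other members differed by between -0.25 (Tie1) and 0.13 (Flt1), and 2 were positive and 8 negative. None of the 9 muscle genes was positive here either (median -1.33), and all 4 pituitary genes were (median 2.44), with none called; their part was not tested.

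The size of the acrylamide difference in Kdr was compared between strata. Night minus morning in females, it was 0.92 (SE 0.29, 95% interval 0.32 to 1.52, unadjusted p = 0.00436), and it did not pass over all genes (limma adjusted p = 0.221), where 0% were called and 16.2% were under 0.05 unadjusted. Males minus females at night, it was 0.62 for Kdr (SE 0.29) and 0.51 for Pecam1 (SE 0.23), both with an adjusted p of 0.997, where 0% of genes were called and 2.08% were under 0.05 unadjusted. Averaged over the 3 strata, Kdr differed by -0.14 (SE 0.12, adjusted p = 0.83) and Vegfa by -0.20 (SE 0.11, adjusted p = 0.771), and no member was called, against 0.00493% of all genes (6.68% at an unadjusted p under 0.05, where no member was).

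The comparison of control females at night with control females in the morning called 4 of 10 members, against 45% of all genes. Of these 3 were higher at night, against 13.2% of all genes, and 1 was lower, against 31.8%; at an unadjusted p under 0.05 there were 5, against 51.3%. Tie1 read -1.60, -1.82, -1.73 and -2.08 at night, against -3.31, -3.74, -3.68 and -4.71 in the morning. The groups did not overlap, and Tie1 was higher at night by 2.06 (SE 0.56, 4.16-fold, limma adjusted p = 0.00469). Eng, at -0.17, -0.42, -0.15 and -0.83 at night, against -1.51, -1.47, -1.94 and -2.99 in the morning, was higher by 1.58 (SE 0.51, 3-fold, adjusted p = 0.0152). Emcn was higher by 1.20 (SE 0.33, 2.3-fold, adjusted p = 0.00562). Cdh5 went the other way, at -2.32, -2.56, -2.52 and -2.64 at night, against -1.10, -1, -1.35 and -1.12 in the morning. It was lower at night by a log2 difference of -1.37 (SE 0.29, 0.387-fold, adjusted p = 0.000523). With Kdr, whose difference of 0.19 did not pass (adjusted p = 0.475), 5 of 10 members did not overlap, against 55.2% of all genes. Without the array labelled control morning female 4, Tie1, Emcn and Cdh5 were called and Eng was not. Collection time, slide and scan session cannot be told apart here.

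The 3 Vwf probes disagreed between the night and the morning controls. The first read -3.55, -3.81, -4.12 and -4.45 at night, against 0.78, 0.54, 0.24 and 0.54 in the morning, and no array came near the other group. It was lower at night by a log2 difference of -4.50 (SE 0.30, 0.044-fold, adjusted p = 1.48e-10 with every probe tested, where 43.8% of probes were called). The second differed by 0.56 (SE 0.30, adjusted p = 0.137) and the third by -0.54 (SE 0.25, adjusted p = 0.0874). The probe that passed the test carries the repeat of A and C. It also starts at 161738186 on chromosome 4, away from the other Vwf probes, which start at 161854554 and 161854702. The part of the repeat or of the position in the night-morning difference was not tested. Between control males and control females at night no member was called, nor did any fail to overlap, against 0.00986% called and 3.69% not overlapping over all genes (1.63% at an unadjusted p under 0.05), and Kdr differed by -0.25 (SE 0.20, adjusted p = 1).

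Across arrays, some members moved together. Each array's level was taken as its deviation from its group mean, over 24 arrays that share their scaling, and the correlations are descriptions. Tie1 moved with Eng (r = 0.96, rho = 0.96, r = 0.96 without the 2 arrays farthest from the median) and with Emcn (r = 0.93, rho = 0.91, 0.91 without 2), and Eng with Emcn (r = 0.88, rho = 0.86, 0.85 without 2). Cdh5 moved with Vwf (r = 0.86, rho = 0.88, 0.85 without 2). Kdr moved with Vegfa (r = 0.65, rho = 0.61, 0.61 without 2) and against Tek (r = -0.59, rho = -0.51, -0.40 without 2). The probes of Tie1, Eng and Emcn share no run of bases longer than 6, and those of Tie1 and Eng are shown because their levels ran most closely together.
Tie1, A_44_P520235, chr5:138950263-138950322, minus strand: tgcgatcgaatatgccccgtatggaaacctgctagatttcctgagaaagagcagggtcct
Eng, A_44_P474559, no position in the files: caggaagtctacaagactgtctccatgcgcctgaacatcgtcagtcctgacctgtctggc

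**Figure D4:**
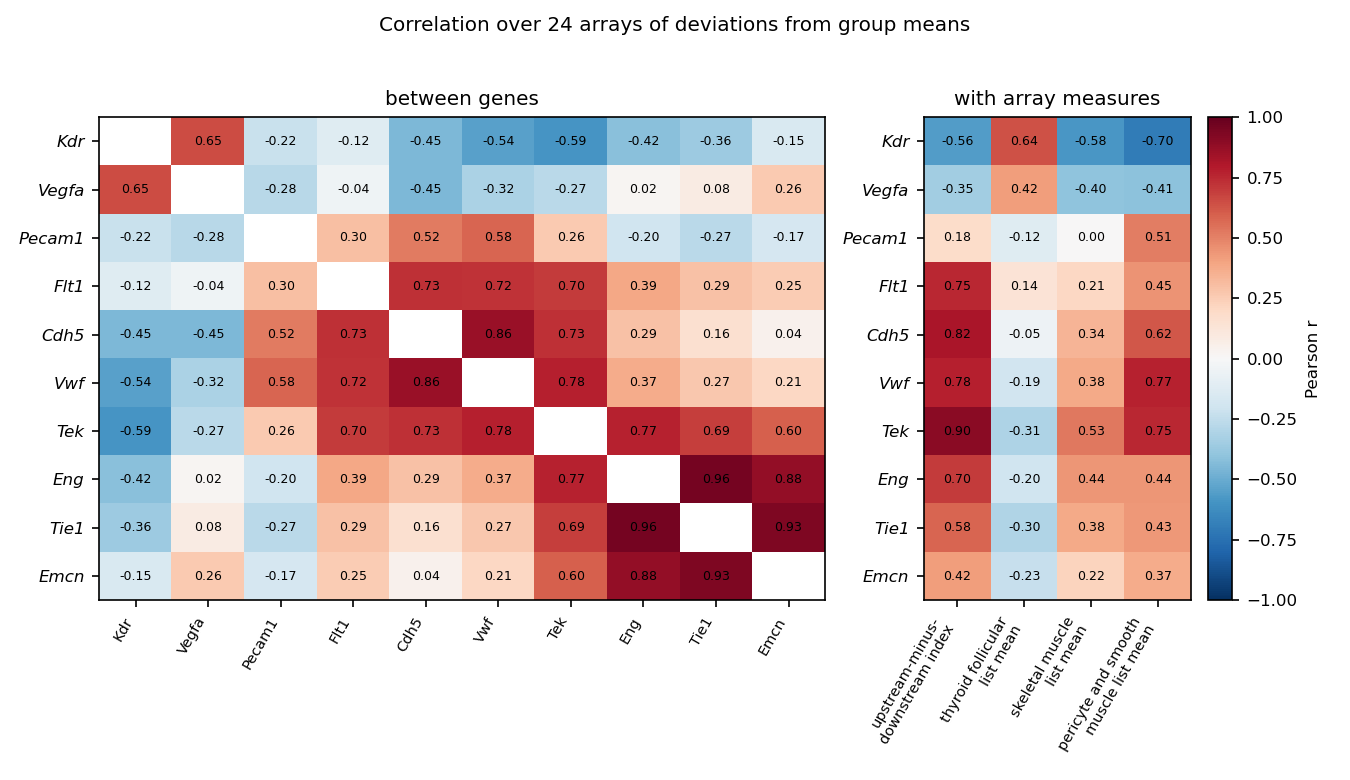
Pearson correlation of the 10 genes' deviations from their group means over 24 arrays, from -1 to 1, between genes (left) and with array measures (right). Tie1, Eng and Emcn form a block of 0.88 to 0.96. Among the genes Kdr is positive only with Vegfa (0.65), and among the measures only with the thyroid follicular mean (0.64).

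An array-wide index of probe position ran with several members. For 1859 other genes with at least 2 probes, the level of the upstream probe minus that of the downstream probe was centred per gene, and the median over genes was taken on each array. A low value means that upstream probes gave less signal on that array than on the others, relative to downstream probes. It was -0.66 and -0.43 on acrylamide male arrays 2 and 4, the 2 with low Tie1, Eng and Tek, against 0.11 and 0.29 on acrylamide male arrays 1 and 3 and -0.11 to 0.41 on control male arrays. Over 24 arrays it ran with Tek (r = 0.90, rho = 0.88, 0.83 without 2), Cdh5 (r = 0.82, rho = 0.83, 0.82 without 2), Vwf (r = 0.78) and Flt1 (r = 0.75), and against Kdr (r = -0.56, rho = -0.51, -0.37 without 2). With Vegfa it ran differently by probe, at 0.70 for the first, 0.59 for the second, 0.34 for the third and -0.35 for the fourth. With the index as a covariate, added after seeing the data, the male differences were -0.40 for Tie1 (SE 0.50), -0.04 for Eng (SE 0.40) and 0.13 for Tek (SE 0.20), and Kdr in females in the morning was -0.94 (SE 0.17, adjusted p = 0.0111). In females in the morning the index was -0.08 to 0.11 in acrylamide arrays and -0.04 to 0.07 in controls. Kdr also ran with the mean of the thyroid follicular genes (r = 0.64, rho = 0.58, 0.23 without 2), and against the means of the skeletal muscle genes (r = -0.58, rho = -0.67, -0.55 without 2) and the pericyte and smooth muscle genes (r = -0.70, rho = -0.60, -0.60 without 2).

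**Figure D5:**
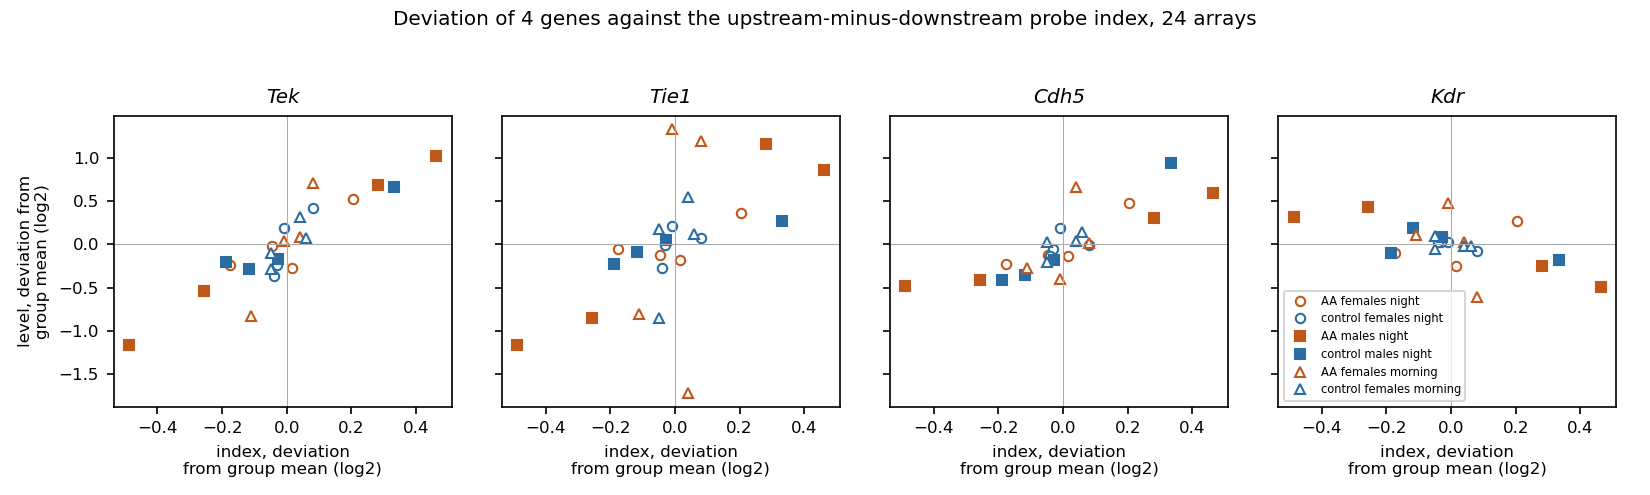
Deviation from the group mean of Tek, Tie1, Cdh5 and Kdr (log2, y axis) against the upstream-minus-downstream index (log2, x axis), 1 point per array, by group. Tek and Cdh5 run with the index (r = 0.90 and 0.82) and Kdr runs the other way (r = -0.56).

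A list of 81 other vascular genes was tested beside the members. In females in the morning 2 of the 81 were called, both lower, against 1.75% of all genes called lower. The count is near that share. Esm1, whose product is secreted by endothelial tip cells, read -1.09, -0.26, -0.15 and 1.09 in acrylamide females, against 1.15, 1.54, 1.43 and 1.70 in controls. Clec14a, an endothelial surface protein, read -0.10, -0.15, 0.10 and 0.24 in acrylamide females, against 0.80, 0.78, 1.14 and 0.79 in controls. Neither gene overlapped between groups, while 8.23% of all genes did not overlap. Both were named because they were called, so this separation is no further support. Esm1 fell by 1.56 on the log2 scale (SE 0.31, 0.34-fold, limma adjusted p = 0.0227) and Clec14a by 0.86 (SE 0.16, 0.552-fold, adjusted p = 0.0201). Without acrylamide array 1 the values were -1.23 (adjusted p = 0.0709) and -0.82 (adjusted p = 0.0617). With the thyroid and muscle means as covariates they were -1.01 (adjusted p = 0.273) and -0.76 (adjusted p = 0.178). Both calls were also lost with the authors' deposited matrix (adjusted p = 0.0699 and 0.101) and on the 8 arrays alone (0.386 each). The same held with the array median subtracted, with slide or row as a term and with the replicate block. Vegfc, a lymphatic growth factor named for its large test statistic, differed by -0.62 (SE 0.17, adjusted p = 0.0565). Its lack of overlap is likewise no further support. The median of the 81 was -0.06, beside -0.09 over all genes, with 37 positive.

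By group, the differences in females in the morning were mixed. Of 9 VEGF and angiopoietin ligands and receptors, 3 were positive. Of 14 endothelial transcription factors, 7 were positive, and of 11 Vegfa regulators and hypoxia targets, 7. Of 6 genes of the endoglin and BMP pathway, 1 was positive, with a median of -0.80, and none was called. The 10 pericyte and smooth muscle genes had a median of -0.03, and the 5 lymphatic genes 0.37. Of 22 endothelial effector and surface genes 9 were positive, with a median of -0.06, and of 4 platelet genes 1, with a median of -0.45.

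At night none of the 81 was called in either sex. In males the largest test statistics were those of Angptl4 (1.28, SE 0.34), Ddit4, a stress-induced inhibitor of mTOR signalling (1.18, SE 0.31), and S1pr1, a receptor for sphingosine 1-phosphate (0.78, SE 0.23), with adjusted p-values of 0.354, 0.354 and 0.366. All 4 acrylamide arrays lay above all controls for each of them, while 4.49% of all genes did not overlap. These genes were named for their large test statistic, so this separation is no further support. Without arrays 2 and 4, which read highest for S1pr1, S1pr1 differed by 0.31 (SE 0.22). In females the largest test statistics were those of the platelet gene Gp5 (-1.41, SE 0.48), the peptide ligand Apln (-0.70, SE 0.29) and its receptor Aplnr (-0.56, SE 0.25), each with adjusted p = 1. None of them overlapped between groups, while 5.72% of all genes did not overlap, and they were named in the same way. Averaged over the strata the largest statistics were those of Ddit4 (0.62, adjusted p = 0.513), Esm1 (-0.61, adjusted p = 0.515) and Vegfb, and 24 of the 81 were positive. No difference is given for Vegfb, which was not well above background on 7 arrays, 6 of them control arrays.

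Between control females at night and in the morning, 36 of the 81 were called, against 45% of all genes, so the count is near that share. Of these 14 were higher and 22 lower, against 13.2% and 31.8% of all genes. Collection time, slide and scan session cannot be told apart in any of these differences. Higher at night were Angpt2, Notch4, Esam, Procr, Ramp2, Lmo2, Acvrl1, Slc2a1, Adm, Ddit4, Ccl21, Mmrn1, Rgs5 and Kcnj8. Lower at night were Angpt1, Angptl4, Flt4, Apln, Dll4, Robo4, Clec14a, S1pr1, Sox7, Sox17, Tal1, Gata2, Hey1, Id1, Id3, Pfkfb3, Acta2, Notch3, Abcc9, Gp5, Gp9 and Ppbp. The 2 with the largest differences were Id3, an inhibitor of DNA binding downstream of BMP signalling (-6.68, SE 0.36, adjusted p = 2.83e-12), and Sox17, an endothelial transcription factor (-4.09, SE 0.39, adjusted p = 2.38e-08). Angpt2, the ligand that opposes Angpt1 at the Tek receptor, was higher by 1.28 (SE 0.39, adjusted p = 0.0117), and Angpt1 was lower by a log2 difference of -0.67 (SE 0.21, adjusted p = 0.0127).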

How the data were processed

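The authors scanned 1-colour Agilent arrays with Feature Extraction 10.1.1.1, per the file headers, and the deposited files hold its processed signal intensity per spot; flagged outlier spots were left out and 45 probe values stayed empty. Their deposited matrix holds log2 values with a column median of 0, used as an alternative. Spots of a probe were averaged and each array's 75th percentile subtracted from log2 intensity. Probes well above background on at least 3 of 4 arrays of any group were kept (23416 of 30367), and 1 probe per gene, the brightest, was tested. Probes were named by accession (18384), symbol (2485), synonym (528) or array name (8970). Group means over 24 arrays were fitted with limma 3.58.1 in R 4.3.3 (18 residual and 2.59 prior degrees of freedom), with Benjamini-Hochberg adjusted p under 0.05 over 20274 genes. Depth of reading has no counterpart on arrays, so 4 arrays per group limit the precision. The genes named are the members, every called gene of the vascular lists and the 3 with the largest statistic per acrylamide comparison. Members and lists were chosen with earlier results of these data known. Replicate numbers were checked for pairing: same-numbered arrays correlated at -0.229 to 0.355 and were not paired. The fit was tested on simulated data. The sequence of 1 further probe and the value of 1 further marker gene are not reported here.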

Additional observations from a re-analysis of the deposited data

Results flagged for a closer look

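Over 90 sets of 4 arrays (15 probes in 6 groups), 5 held an array whose gap to its nearest neighbour, over the range, was above Dixon's 95% critical value; chance alone flags about 1 set in 20. Kdr on control female array 3 at night was 3.91, with the others at 4.01. Tek on control male array 4 at night was -3.44, with the others between -4.38 and -4.27. Cdh5 on the same array was -1.42, with the others between -2.77 and -2.54; its index was 0.41. Cdh5 on acrylamide female array 2 at night was -2.18, with the others between -2.89 and -2.78. The second Vwf probe on control female array 1 at night was 0.17, with the others between -0.51 and -0.41. Their cause was not tested.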

How the results depend on the processing

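Among females in the morning the count of members called was 1 (Kdr). It was 0 with the array median subtracted, with the authors' deposited matrix, with the 8 arrays alone, with slide or row as a term, with the replicate block, with thyroid and muscle means as covariates, and without acrylamide arrays 1 and 3 (added after seeing the data). Leaving out 1 array gave 0 to 2: 0 without acrylamide array 1 or control array 1, 2 or 3, and 2 without acrylamide array 3 (with Pecam1) or 4 (with Vegfa). Kdr was -0.95 (adjusted p = 0.103) with the median or the matrix, -0.93 (0.526) with slide, -0.97 (0.184) with row and -0.96 (0.1) with the replicate block. Over all genes, 451 calls in this comparison became 0 in the 8-array, slide, row, replicate block and covariate fits, 12 with the median or matrix, 222 with normexp, 112 without a filter, 120 with array weights, 965 with quantile normalization and 1390 with the index as a covariate; leaving out 1 morning array gave 0 (control array 2) to 1929 (acrylamide array 3), with 60 and 19 without control arrays 1 and 3, 223 without control array 4, 33 without acrylamide array 1, 1047 without array 2 and 1701 without array 4. Of the calls 78.7% were lower, against 66.7% with the median or matrix, 64.8% with quantile and 91.9% with normexp. Between night and morning controls 4 members were called, 8 with quantile normalization and 7 with array weights, against 45%, 52.9% and 61.5% of all genes. The acrylamide difference night minus morning called 0 members, and 0 to 1 when 1 array was left out: Kdr without acrylamide array 4. The share of all genes called in that fit is not given here, so this Kdr call has no background beside it. Without the same array the morning comparison called 1701 genes in place of 451. The median difference of all genes in males at night moved to 0.18 from -0.04 when the array median was subtracted, and Kdr to 0.80. Counting each gene in each acrylamide comparison under each setting, the sign turned in 34 of 844 differences, and in 35 of 624 with 1 array left out. None of the differences that turned was called. The numbers do not pair the arrays. The cause of these changes was not tested. Signal over background limits none of the members, which were well above background on all 24 arrays.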

Other observations

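Over 24 arrays of deviations from the group means, the genes most like Kdr were Nradd and an unnamed probe, A_64_P138650 (r = 0.92 each), then Efcab7, Pgrmc1 and Dner (r = 0.90 each). Those most like Vegfa were Nbea (0.88), Sbf2 (0.87), LOC100364957 (0.85), Wdr11 and Atp2c1 (0.84 each). Those most like the mean of the other 9 members were Rsbn1l (0.95), Plxna3 and Card10 (0.94 each), Epn2 and Pramef8 (0.93 each).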
